A study of Caenorhabditis elegans with 2 samples.

Results

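The sls-2 genes of Caenorhabditis elegans make the SL2 spliced-leader RNAs, and 9 of the 18 annotated sls-2 genes lay within 100 bp of a reproducible CHD-7 peak summit. These 9 genes, sls-2.1, sls-2.2, sls-2.4, sls-2.7, sls-2.8, sls-2.9, sls-2.14, sls-2.15 and sls-2.16, were chosen by those summits, so their summits, widths, signals and ranks are given as a description and no test is made of them. The share of 50% (95% Wilson interval 29.0% to 71.0%, counting error only) stands beside 3.48% of all 46890 annotated nuclear genes at the same distance, and nothing is read from that difference. Positions were measured by chromatin immunoprecipitation and sequencing (ChIP-seq) in whole worms of strain OP609, genotype unc-119(tm4063) III; wgIs609, which stably carries CHD-7 with GFP and FLAG joined to its C-terminal end. An antibody against GFP was used on sonicated chromatin of mixed-sex young adults, 67 hours after synchronisation as starved first-stage larvae from bleaching. The samples were 2 biological replicates of this single transgenic line, with no second genotype, treatment or stage. Library depth is unknown, because the deposited lists used here give peaks without read counts.

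Trans-splicing joins a short leader exon, donated by a small nuclear RNA, to the start of a messenger RNA. In C. elegans the SL1 leader goes mainly to the first or only gene of a transcript, whereas SL2 and its variants go mainly to downstream genes of operons. Each SL2 RNA begins with the leader exon and continues with a splice donor and a binding site for Sm proteins. Small nuclear RNA genes are known to depend on an upstream proximal element bound by the SNAPc complex. CHD-7 belongs to the chromodomain helicases, enzymes that use ATP to move nucleosomes.

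The 18 genes are short, from 107 to 114 bp, and the sequences of 10 of them, 6 with and 4 without a reproducible summit, are shown so that the conserved letters can be compared. All 18 begin with GGTTT. Each sequence runs 5′ to 3′ from 75 bases upstream of the annotated 5′ end to the end of the gene, read from the RefSeq ce11 (WBcel235) genome on the strand of the gene. Capitals mark, in order, the 10 bases from -48 to -39, the most conserved upstream window of the family, the leader exon up to the splice donor, and the inner letters AATTTTTGG where a gene holds them. In sls-2.10 the consensus letters of this window start 1 base later, 47 bases upstream. Of the genes with a reproducible summit, sls-2.1 (chrII:5844790-5844974, plus strand) and sls-2.2 (chrII:5543523-5543707, plus) share 1 leader, and sls-2.8 (chrIII:12250390-12250575, plus), sls-2.14 (chrIII:11090412-11090598, minus), sls-2.15 (chrIII:11090935-11091121, plus) and sls-2.16 (chrIII:7141316-7141499, plus) each have their own.
sls-2.1: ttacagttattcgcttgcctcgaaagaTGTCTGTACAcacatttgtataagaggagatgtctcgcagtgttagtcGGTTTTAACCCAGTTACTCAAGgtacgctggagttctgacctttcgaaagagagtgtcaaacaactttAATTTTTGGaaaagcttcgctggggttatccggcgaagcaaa
sls-2.2: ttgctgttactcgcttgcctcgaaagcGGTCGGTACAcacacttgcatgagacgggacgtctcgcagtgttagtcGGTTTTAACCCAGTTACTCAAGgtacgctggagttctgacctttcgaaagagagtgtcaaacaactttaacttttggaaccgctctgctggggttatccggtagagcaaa
sls-2.8: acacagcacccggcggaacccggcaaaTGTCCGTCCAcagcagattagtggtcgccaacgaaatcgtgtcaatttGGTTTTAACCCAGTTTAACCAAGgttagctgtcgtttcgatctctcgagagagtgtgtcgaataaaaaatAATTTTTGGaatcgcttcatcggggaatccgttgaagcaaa
sls-2.14: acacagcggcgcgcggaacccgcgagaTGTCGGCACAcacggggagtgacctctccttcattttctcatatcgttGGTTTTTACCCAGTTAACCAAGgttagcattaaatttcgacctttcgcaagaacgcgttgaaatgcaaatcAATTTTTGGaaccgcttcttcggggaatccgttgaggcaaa
sls-2.15: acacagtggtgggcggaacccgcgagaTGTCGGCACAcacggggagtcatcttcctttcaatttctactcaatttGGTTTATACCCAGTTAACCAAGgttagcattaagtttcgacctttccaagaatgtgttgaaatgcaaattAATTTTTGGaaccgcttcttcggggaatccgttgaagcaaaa
sls-2.16: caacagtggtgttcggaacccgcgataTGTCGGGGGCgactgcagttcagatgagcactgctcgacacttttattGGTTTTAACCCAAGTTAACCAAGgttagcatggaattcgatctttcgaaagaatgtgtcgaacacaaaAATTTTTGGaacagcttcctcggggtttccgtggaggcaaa
Of the genes without one, sls-2.3 (chrII:5544164-5544348, minus) carries the leader of sls-2.1 and sls-2.2, and sls-2.5 (chrIII:7140447-7140628, minus), sls-2.10 (chrIV:9130721-9130904, minus) and sls-2.12 (chrIV:5261838-5262022, plus) are shown for leaders of other groups.
sls-2.3: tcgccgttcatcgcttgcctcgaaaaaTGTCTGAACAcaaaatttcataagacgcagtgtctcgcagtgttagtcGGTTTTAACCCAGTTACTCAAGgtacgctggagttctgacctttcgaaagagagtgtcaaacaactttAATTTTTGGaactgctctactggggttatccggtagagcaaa
sls-2.5: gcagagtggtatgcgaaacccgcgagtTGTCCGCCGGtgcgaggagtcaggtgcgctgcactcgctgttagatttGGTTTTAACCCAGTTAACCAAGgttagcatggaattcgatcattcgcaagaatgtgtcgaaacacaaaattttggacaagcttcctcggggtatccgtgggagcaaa
sls-2.10: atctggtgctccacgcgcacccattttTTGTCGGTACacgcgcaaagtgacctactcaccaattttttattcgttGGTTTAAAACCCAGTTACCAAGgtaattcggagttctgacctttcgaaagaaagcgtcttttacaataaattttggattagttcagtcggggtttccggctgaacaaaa
sls-2.12: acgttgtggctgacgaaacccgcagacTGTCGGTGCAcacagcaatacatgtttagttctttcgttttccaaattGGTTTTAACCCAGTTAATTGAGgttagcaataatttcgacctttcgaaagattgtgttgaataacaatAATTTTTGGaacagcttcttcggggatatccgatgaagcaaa

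The summits did not share 1 position on the genes. Measured from the annotated 5′ end along the strand of the gene, the median offset of the nearest reproducible summit was 91 bp, and the 9 offsets ran from -95 to 205 bp. Summits at sls-2.1 and sls-2.9 lay upstream of the 5′ end, at -41 and -95 bp. Those at sls-2.2, sls-2.4, sls-2.8 and sls-2.16 lay within the transcribed sequence, at 100, 91, 33 and 79 bp. Those at sls-2.7, sls-2.14 and sls-2.15 lay downstream of the gene's end, at 205, 204 and 151 bp from the 5′ end. The gene sls-2.1 had a second reproducible summit at 162 bp, past its other end, so that the 9 genes had 10 reproducible peaks in all. Closest to the 100 bp limit were sls-2.7, sls-2.9 and sls-2.14, whose summits lay 96, 95 and 93 bp from the gene, and the nearest gene outside it was sls-2.6 at 246 bp.

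**Figure D1:**
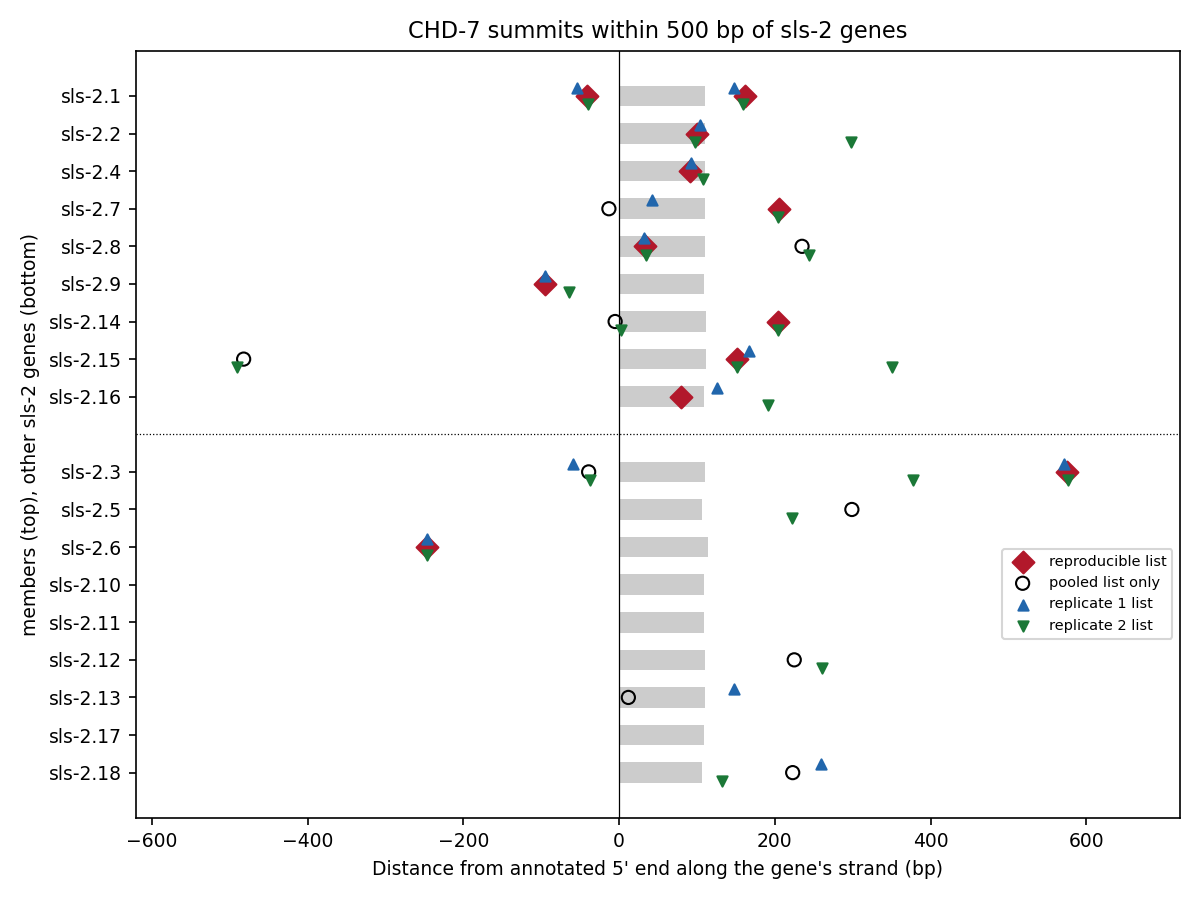
Positions of CHD-7 summits relative to the annotated 5′ end of each sls-2 gene, in bp along the gene's strand, for the 9 genes with a reproducible summit (top) and the other 9 (bottom). Grey bars are the genes, and symbols give the list each summit comes from. Reproducible summits of the top genes run from -95 to 205 bp, and the summit 246 bp upstream of sls-2.6 is at 1 position in all lists.

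The peaks at these genes spanned nearly the whole order of the reproducible list, in which 1884 peaks are ranked by the authors' signal. The 3 highest were sls-2.1 (rank 10, signal 1019), sls-2.4 (rank 11, signal 989) and sls-2.2 (rank 55, signal 633). All of these 3 carry the same leader. Next came sls-2.15 (rank 362, signal 320.1), sls-2.14 (rank 405, signal 306), sls-2.8 (rank 423, signal 302) and sls-2.9 (rank 511, signal 285). The weakest were sls-2.16 (rank 1124, signal 201) and sls-2.7 (rank 1781, signal 169). Thus 7 of the 9 stood in the higher-ranked 942 peaks and sls-2.7 near the end of the list. The second summit at sls-2.1 ranked 358, with a signal of 324. The median signal of the 9 genes was 306, beside 216 for the list, whose signals ran from 166 to 5232. The deposited −log10 q was tied at its highest value for 8 of the 9 genes and for 1350 peaks of the list, and it was 2.85 at sls-2.7 against 3.43 at the others.

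Of the 10 reproducible peaks at these genes, 5 had the list's commonest width. At 5 of the 9 genes the interval was 390 bp, the width of 81.3% of reproducible peaks (1532), all of which have their summit at the middle. The other intervals were 700 bp at sls-2.2, 557 bp at sls-2.4, 396 bp at sls-2.1 and 254 bp at sls-2.8, and the second peak at sls-2.1 was 405 bp wide. Single-replicate lists had commonest widths of their own, 364 bp for 99.3% of entries in replicate 1 and 420 bp for 99.0% in replicate 2. At sls-2.2 the interval was 374 bp in replicate 1 and 684 bp in replicate 2, and at sls-2.8 it was 190 bp and 420 bp. No summits of any list lay closer together than 199 bp. The 10 pairs of summits found within 200 bp of an sls-2 gene in the 4 lists, those at sls-2.1 among them, were 199 to 218 bp apart.

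Both replicates placed a summit within 100 bp of 8 of the 9 genes, at any rank in lists of 30000 entries each. The list that chose these genes was derived from both replicates, so this count is a description only. In the pooled list, also of 30000 entries, 27.3% of all annotated genes had such a summit. That share was not computed for the single-replicate lists. At sls-2.1 the highest-ranked summit stood at rank 12 (signal 498, offset -54 bp) in replicate 1 and rank 9 (signal 526, offset -40 bp) in replicate 2. At sls-2.4 the summit ranked 13 (signal 476, 92 bp) and 12 (signal 489, 108 bp), and at sls-2.2 it ranked 61 (signal 310.3, 104 bp) and 63 (signal 309, 98 bp). These 3 genes were thus near the top of both lists, with summits 14, 16 and 6 bp apart.

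Of the lower-ranked genes, sls-2.8, sls-2.9, sls-2.15 and sls-2.16 were also found by each replicate within its first 1884 entries. The summit at sls-2.8 ranked 304 (signal 178, 32 bp) in replicate 1 and 582 (signal 138, 35 bp) in replicate 2. That at sls-2.9 ranked 469 (signal 154, -95 bp) and 565 (signal 140.1, -64 bp), and that at sls-2.15 ranked 283 (signal 183, 167 bp) and 462 (signal 152, 151 bp). At sls-2.16 the ranks were 1014 (signal 116, 126 bp) and 1378 (signal 98.0, 191 bp), so that both single-replicate summits lay past the gene's end while the reproducible one lay within it. For these 4 genes, as for the 3 above, the ranks of the replicates were within 2-fold of each other and within the first 1884 of both lists.

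The replicates differed at sls-2.7 and sls-2.14, so a reproducible peak here does not mean a similar summit in each replicate. At sls-2.7 replicate 1 had only a summit of rank 11480 (signal 52.9) within the gene at 42 bp, and replicate 2 had one of rank 783 (signal 123) downstream at 204 bp. These summits lay 162 bp apart, and their ranks differed 14.7-fold. At sls-2.14 replicate 1 listed no summit within 500 bp, whereas replicate 2 listed one of rank 548 (signal 142) at 204 bp and a weaker one of rank 4864 (signal 57.3) at 3 bp. Within its 1884 highest entries, replicate 1 had a summit at 7 of the 9 genes, these being the exceptions, and replicate 2 had one at all 9.

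**Figure D2:**
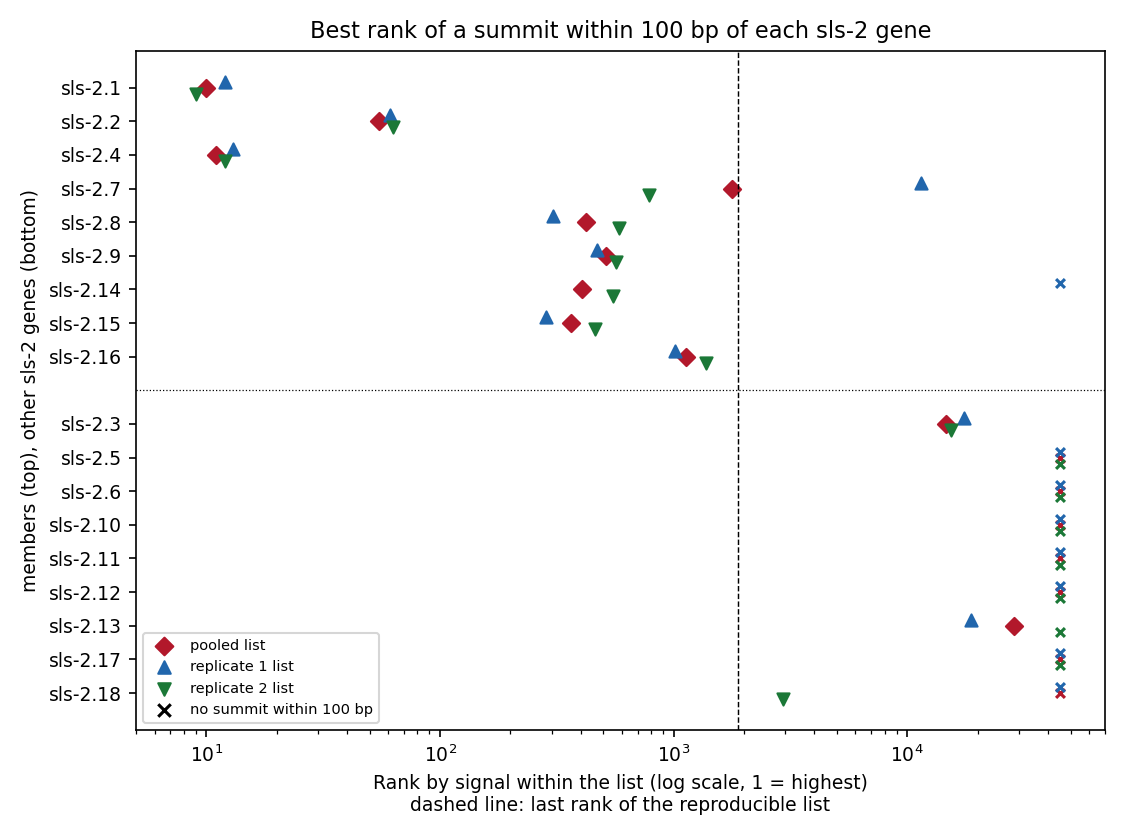
Best rank by signal of a summit within 100 bp of each sls-2 gene (log scale, 1 is the highest), in the pooled list and in each replicate, for the 9 genes with a reproducible summit (top) and the other 9 (bottom). Crosses at the right mark lists with no such summit. The dashed line is the last reproducible rank, 1884, and the ranks at sls-2.1 and sls-2.4 lie between 9 and 13 in every list.

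The other 9 sls-2 genes differed in how far they were from any peak. A reproducible summit lay 246 bp upstream of sls-2.6 (rank 874, signal 222), at rank 742 in replicate 1 and 1848 in replicate 2, with the same offset in each. For sls-2.3, sls-2.18 and sls-2.5 the nearest reproducible summit was that of a neighbouring sls-2 gene with a peak, at 466, 821 and 917 bp. The remaining 5, sls-2.10, sls-2.11, sls-2.17, sls-2.12 and sls-2.13, all on chromosome IV, were 56318, 56469, 72703, 77994 and 120388 bp from one. Chromosome IV held 271 reproducible peaks and 5 sls-2 genes, none of which had a reproducible summit. On the other chromosomes 9 of 13 had one, namely 3 of 4 on I, 2 of 3 on II and 4 of 6 on III, and V and X hold none of the 18.

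In the pooled list of 30000 entries, 2 of the other 9 sls-2 genes (22.2%) had a summit within 100 bp, a share near the 27.3% of all annotated genes. The 27.3% includes genes with a reproducible summit, which these 9 lack by choice, so the sets are unlike. The count was 5 within 200 bp and 6 within 500 bp, distances at which the share of all genes was not computed. That at sls-2.3 ranked 14659 (signal 75.1, -39 bp), and ranked 17550 in replicate 1 and 15436 in replicate 2. That at sls-2.13 ranked 28655 (signal 50.7, 12 bp), with a summit of rank 18712 in replicate 1 and none within 500 bp in replicate 2. The gene sls-2.18 had the pooled summit closest in rank to the reproducible list, rank 2076 (signal 159), 117 bp past its end. Its summit ranked 4699 in replicate 1, 153 bp past the end, and 2938 in replicate 2, 26 bp past the end. Pooled summits near sls-2.5 (rank 17834) and sls-2.12 (rank 27841) lay 193 and 116 bp past the genes, and sls-2.10, sls-2.11 and sls-2.17 had no entry within 500 bp in any list.

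Several of the 9 genes lie in pairs or inside other genes. The genes sls-2.14 and sls-2.15 are divergent, 487 bp apart, and both lie in introns of W09D6.5, with their reproducible summits in its coding exons. Their neighbour on the far side of sls-2.15 is hmt-1, which encodes an ABC transporter for heavy metal tolerance, 427 bp away. The gene sls-2.16 lies in an intron of glr-2, a glutamate receptor gene, together with sls-2.18 at 792 bp and sls-2.5 at 838 bp, and only sls-2.16 of these 3 had a reproducible summit. That summit lay within sls-2.16, but the non-coding RNA gene B0280.22 was also within 100 bp of it. The gene sls-2.2 converges on sls-2.3, 457 bp away, with the insulin-like gene ins-13 beyond it, and the 700 bp interval of sls-2.2 ended 25 bp from sls-2.3 without reaching it.

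The remaining members stood between protein-coding genes. The gene sls-2.1 lies 245 bp from nep-25 and 280 bp from ZK1248.17, sls-2.4 lies 617 bp from egg-5, which acts in the change from oocyte to embryo, and 123 bp from R12E2.11, and sls-2.8 lies 301 bp from tim-1, the timeless homologue, and 85 bp from Y75B8A.23. The gene sls-2.7 lies 145 bp from W06D4.3 and 66 bp from spe-46, a gene of sperm development, and its summit fell in an untranslated exon of spe-46. The gene sls-2.9 lies 319 bp from top-1, which encodes topoisomerase I, and 219 bp from sepa-1. A tRNA gene (WBGene00014446) lies 132 bp away on its upstream side. The reproducible summit lay between the tRNA gene and sls-2.9, 95 bp from sls-2.9 and nearer the tRNA gene. The non-coding RNA gene M01E5.8 was also within 100 bp of that summit, which thus cannot be given to sls-2.9 alone. Non-coding RNA genes are annotated across sls-2.2, sls-2.4 and sls-2.8 on the opposite strand. Peaks carry no strand, so a summit there cannot be given to 1 gene of the pair.

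The median gap to the nearest coding gene, leaving out a gene that contains them, was shorter for the genes with a reproducible summit. It was 617 bp on the upstream side and 280 bp on the downstream side, beside 1771 and 2379 bp for the other 9. Inside a protein-coding gene lay 3 of the 9 and 4 of the other 9, namely sls-2.5 and sls-2.18 in glr-2, sls-2.6 in hgo-1 and sls-2.11 in daf-10, a gene of intraflagellar transport. Genes for major sperm proteins stand beside sls-2.12 (msp-19), sls-2.13 (msp-53 and msp-57) and sls-2.17 (msp-65). These are medians over 9 genes each, and the difference was not tested.

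Matches to the upstream window overlapped in range between the genes with a reproducible summit and the others. Over the 100 bases upstream of all 18 genes, the most conserved stretch of 10 bases ran from -48 to -39. Its mean information content was 0.962 bits, beside a median of 0.499 over 91 windows. The highest single position was -2, with 2 bits. The window was not the only conserved stretch, since positions -62 and -55 held 1.69 bits, as did -48 and -43 inside the window. Letters of the stretch from -62 to -55 were not compared between the groups. The consensus of the window from -48 to -39, TGTCGGTACA, was found by lining up the genes at their 5′ ends with no motif supplied. Searched on both strands, a match of at least 8 of 10 letters was held by 7 of the 9 genes with a summit and by 6 of the other 9, and of at least 9 letters by 6 and by 5, each best match being on the gene's strand. Among the genes with a summit, sls-2.7 and sls-2.16, the lowest-ranked, matched 6 letters, and sls-2.4 and sls-2.9 matched all 10. The same exact letters stood 1 base nearer in sls-2.10 and sls-2.11, which had no summit in any list within 500 bp. At the fixed position from -48 to -39, each gene was also scored against the consensus of the other sls-2 genes. The median was then 9 of 10 letters (6 to 10) at the genes with a summit and 5 (2 to 9) at the others. In that count sls-2.10 and sls-2.11 matched 2 letters each, and the difference was not tested. With at most 2 mismatches, the window was found upstream of 53.5% of other small nuclear RNA genes, 6.86% of tRNA genes, 4.34% of snoRNA genes, 3.49% of protein-coding genes and 0% of sls-1 genes, in the same 100 bases on either strand.

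**Figure D3:**
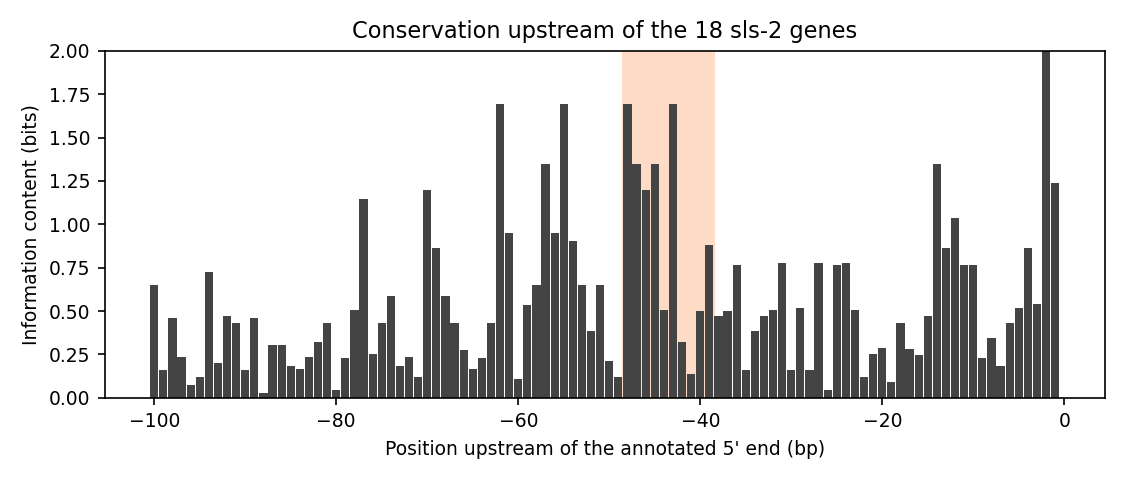
Information content per position over the 100 bases upstream of the annotated 5′ end of the 18 sls-2 genes, in bits. The shaded window from -48 to -39 has the highest mean of 10 neighbouring bases, 0.962 bits.

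Within the genes, the letters AATTTTTGG, which overlap the equally common ATTTTTGGA and TTTTTGGAA, were held by 13 of 18 sls-2 genes and by 8 of the 9 with a summit. They resemble the known Sm-binding letters of small nuclear RNAs. The exception was sls-2.2, and only exact letters, on either strand for the other classes, were counted. They were found in 14.1% of other small nuclear RNA genes, 1.45% of snoRNA genes, 0% of tRNA genes and 0% of sls-1 genes. The 18 genes carry 11 different leaders. The leader of sls-2.1, sls-2.2 and sls-2.4 is also that of sls-2.3, which had no reproducible summit, and the leader of sls-2.7 is also that of sls-2.5 and sls-2.6. The leaders of sls-2.10 and sls-2.11, and of sls-2.12 and sls-2.13, form pairs without a reproducible summit.

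Ranges of gene identity overlapped within and between the groups. Identity between aligned genes had a median of 77.5% among the 9 genes with a summit (71.9% to 96.4%), 75.1% among the other 9 (66.1% to 99.1%) and 75.9% across. The closest relative of sls-2.2 was sls-2.3, at 97.3%. In the 100 upstream bases, the 9 genes with a summit had a median of 63% identity to their closest sls-2 relative (45% to 82%), and the other 9 had 93% (44% to 96%). Median upstream GC content was 52% (48% to 58%) and 46% (38% to 56%).

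**Figure D4:**
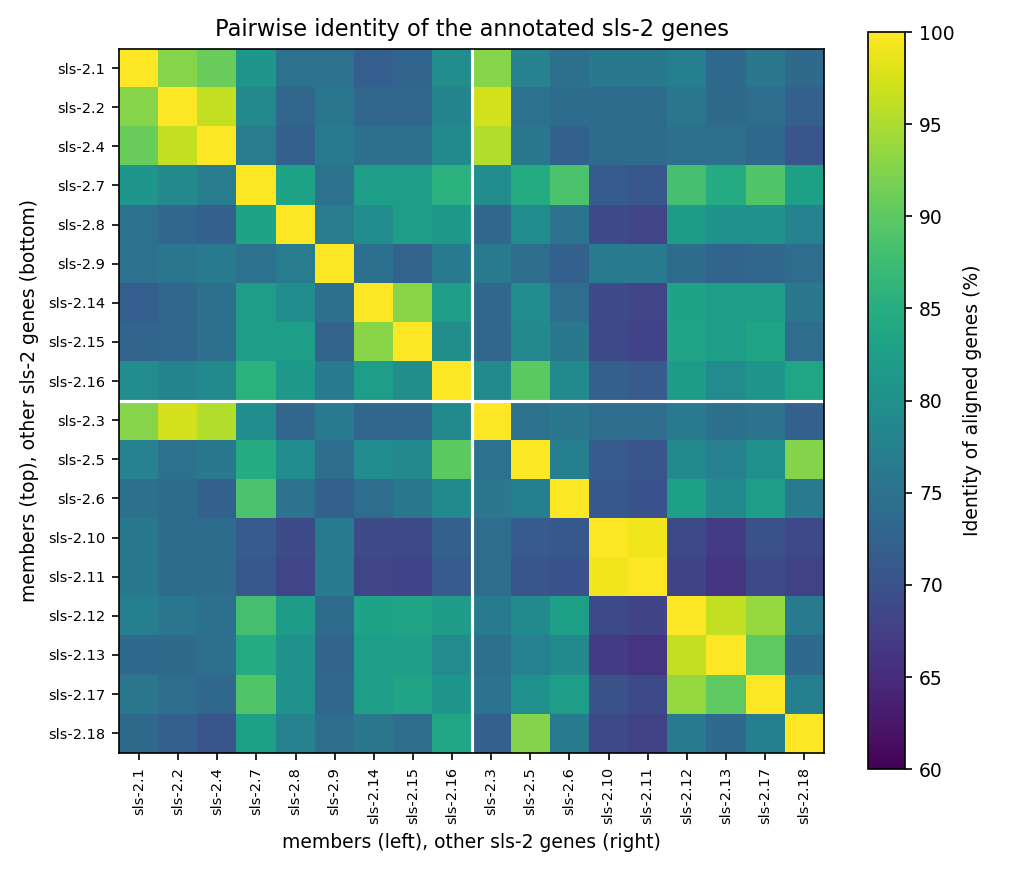
Pairwise identity of the aligned sls-2 genes in percent, with the 9 genes that have a reproducible summit at the top and left and the other 9 at the bottom and right. The block of high identity that joins sls-2.1, sls-2.2 and sls-2.4 also takes in sls-2.3, and the highest identity is 99.1%, between sls-2.10 and sls-2.11.

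Near-identical copies limit where reads can be placed, and how far uniqueness differed between the groups depended on the length considered. Of the 50-base stretches within 100 bp of a gene, the share found once in the genome had a median of 100% at the 9 genes with a summit (81.6% to 100%), 6 of which were unique throughout. At the other 9 it had a median of 88.5% (74.3% to 100%), and sls-2.6 alone was unique throughout. With stretches of 75 bases the medians were 100% in both groups, and 7 of the 9 genes with a summit and 7 of the other 9 were unique throughout. With 36 bases the medians were 100% and 77.5%. The ranges overlap at 50 bases, since sls-2.1 and sls-2.3 both had 81.6%, and sls-2.1 is the gene of highest signal. At the 12 sls-1 genes, none of which had a reproducible summit, the median at 50 bases was 0% (0% to 12.0%). The sources used here give neither the read length nor the aligner's handling of repeated sequence, and the part of uniqueness in the peaks was not tested.

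**Figure D5:**
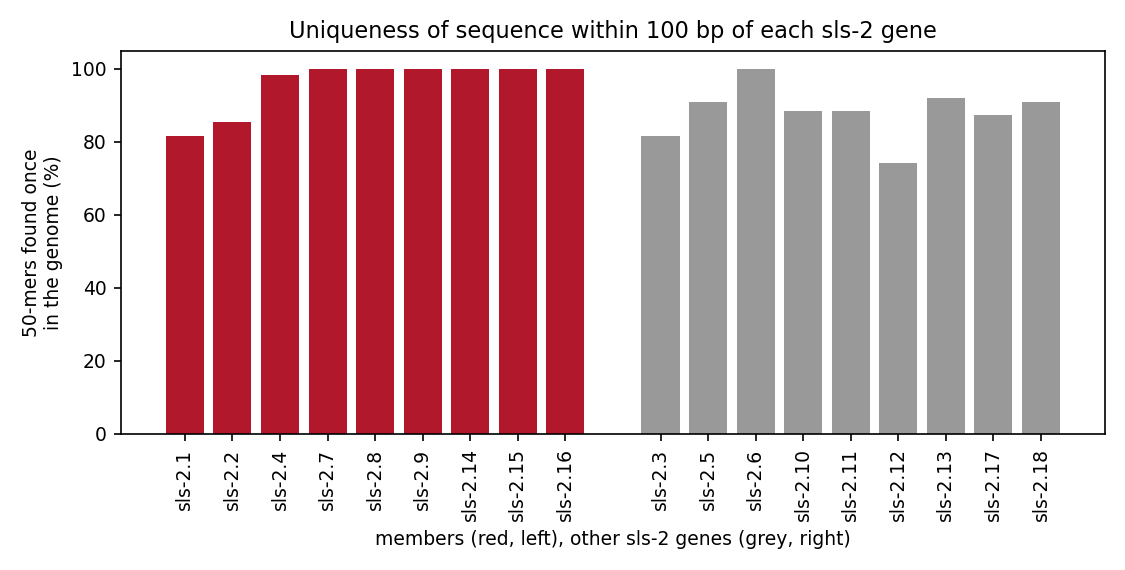
Share of 50-base stretches within 100 bp of each sls-2 gene that occur once in the genome, in percent, for the 9 genes with a reproducible summit (red, left) and the other 9 (grey, right). At this length the bars run from 81.6% to 100% on the left and from 74.3% to 100% on the right.

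Other small RNA genes give the background for these peaks. A reproducible summit within 100 bp was found at 37.4% of 612 tRNA genes, 20.2% of 346 snoRNA genes, 10.1% of 99 other small nuclear RNA genes and 0% of 12 sls-1 genes. No reproducible summit lay within 477439 bp of any sls-1 gene. Of the other small nuclear RNA genes, the highest peaks were at R07E5.16 (WBGene00014543; rank 54, signal 638, offset -27 bp) and sup-6 (rank 60, signal 609, offset 181 bp). The median offset of the nearest summit at those genes was -9.5 bp and the median rank of that summit 475, over 10 genes, beside 91 bp and 405 at the 9 sls-2 genes. Among the 10 is mir-1831, annotated in this class, which lies inside sup-39. Both share the peak of rank 597, which is thus counted once for each, also in the 10.1%.

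A reproducible summit from 1000 bp upstream to 200 bp downstream of a 5′ end was sought at 19 genes. These encode Sm proteins, SNAPc subunits, the TATA-binding protein (tbp-1) and other proteins of spliced-leader RNA. Such a summit stood at 2 of them, or 10.5%, beside 4.18% of all protein-coding genes. The 2 were snr-4, an Sm protein gene (rank 298, -377 bp), and cpf-2 (rank 1643, -167 bp), the CstF-64 homologue that is known to bind the SL2 particle. The window of snr-4 held 2 summits, of ranks 298 and 508. Both are also within 100 bp of the small nuclear RNA gene T11F9.15, so neither can be given to snr-4 alone. The gene snpc-4, for the largest SNAPc subunit, had none in its window.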

How the data were processed

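CHD-7-GFP ChIP-seq peak lists of 2 biological replicates were used, grouped by their labels into 1 group. Per the submitters' deposited notes, the authors called each replicate and the pool of both against 1 control alignment and derived the reproducible list from these by the irreproducible discovery rate. Each reproducible peak within 500 bp of an sls-2 gene had the same interval, signal and rank in the pooled list. The reproducible and pooled lists are therefore not separate evidence for these peaks. The peak caller, aligner, versions, read length and cutoff were not given in the sources used here. Control data and the ce10 lists were not used here. The signal deposited by the authors is the caller's value per peak, and served to order the entries of each list. Summit offsets (in bp from the interval's start) and −log10 q values were used as the authors deposited them. Depth is unknown.

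A summit is the interval's start plus the offset, on ce11. Distances run to the annotated gene body (Ensembl release 115). Genes were listed at 500 bp and counted at 100 bp. Uniqueness was the share of 50-base stretches found once on both strands of the genome. Functions were tested on simulated data first. Python 3.11.15, SciPy 1.17.1, NumPy 2.4.6 and Matplotlib 3.10.9 were used. Text names every sls-2 gene, the 2 other small nuclear RNA genes of highest signal, the coding genes beside or containing a member, and machinery genes with a promoter summit; other genes only where a shared peak matters. Machinery comprised 20 listed genes, of which 19 matched. Members and lists were chosen with earlier results of these data known. No test over genes was made. Alternatives were other distances, whole intervals, the higher-ranked peaks, single replicates, and other lengths and flanks for uniqueness.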

Additional observations from a re-analysis of the deposited data

How the results depend on the processing

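The count of 9 sls-2 genes with a reproducible summit was 6 within 50 bp, 9 within 200 bp, 11 within 500 bp (sls-2.3 and sls-2.6 entering), 9 for overlap with the interval and 7 in the higher-ranked 942 peaks. Leaving out a replicate, and counting in the 1884 highest entries of the other, gave 7 to 9. The median offset of 91 bp was 98 bp with either replicate left out, using all entries of the other (over the 8 members with an entry in replicate 1). The median was 80 bp for the middle of the interval and 91 bp for the summit of highest signal. These moves were smaller than the SD of 64.9 bp between the replicates' nearest summits within a gene. That SD describes single genes and not a median over genes, and so is a wide yardstick. It takes in sls-2.1, where the nearest summits were different ones, at 148 bp in replicate 1 and -40 bp in replicate 2. That yardstick was chosen after the values were seen, because the medians of both replicates were equal and give a spread of 0, by which any change would count as a move. The number of other sls-2 genes with a pooled summit, 2 within 100 bp, moved to 5 within 200 bp and 6 within 500 bp, and the wider distance itself admits more summits. That number was 2 within 50 bp. It was also 2 with either replicate left out, in all entries of the other, though not for the same genes. These were sls-2.3 and sls-2.13 in replicate 1, and sls-2.3 and sls-2.18 in replicate 2. The median share of unique stretches at the members was at its ceiling of 100% for lengths of 36, 50 and 75 bases and for a flank of 200 bp. At the other 9 genes, in alternatives added after seeing the data, the median of 88.5% moved to 77.5% for 36 bases, 100% for 75 bases and 92.8% for a flank of 200 bp, so the gap between the groups was absent at 75 bases.

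No paired analysis was possible because there is 1 group and no comparison between groups. Ranks from 2 replicates and lists without read counts limit the precision, and a missing entry says only that no peak was listed.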
